A study of Rattus norvegicus with 24 samples.

Results

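The proteasome subunit genes of the rat were followed in liver after ANIT (alpha-naphthylisothiocyanate, a toxicant of the bile ducts and of the hepatocytes around them). Members were all genes whose symbol starts with Psm, one letter from a to g and a digit, and that had a probe set naming them alone. There were 44 of them among 13439 genes tested. They were chosen by name, with earlier results of these data known. They held 30 constitutive subunits, 3 catalytic immunoproteasome subunits, 6 assembly chaperones, the activators Psme1 and Psme4 and the inhibitor Psmf1. The other 2, Psmc3ip (a cofactor of meiotic recombination) and Psme3ip1 (a protein that binds an activator), matched the naming rule but are no parts of the proteasome. Psmb6, Psme2, Psme3 and Psmg3 were listed only on probe sets that name several genes and so are not members.

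Total RNA of whole liver was measured on 1 array per rat, in 4 groups of 6 male Sprague Dawley rats aged 8 weeks. ANIT rats had received 1 oral dose of 50 mg/kg in corn oil and were killed at 24 h, which the labels call the peak of injury, or at 120 h, its resolution. Vehicle rats of both times had received the corn oil alone. All 4 groups had also been given 5-bromo-2-deoxyuridine (100 mg/kg) about 2 h before necropsy and had been fasted for about 18 h. The deposited values are on a log2 scale, so a difference of 1 is a doubling, and the level of a gene is compared between groups. Levels of different genes come from different probe sets and have no common scale. The text gives the lowest, median and highest rat of a group, and a gene is called changed at an adjusted p under 0.05 in limma's moderated test over all 13439 genes.

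The proteasome degrades proteins tagged with ubiquitin. Its barrel-shaped 20S core has outer rings of alpha subunits (Psma genes), which gate the entry, and inner rings of beta subunits (Psmb genes), of which Psmb5, Psmb6 and Psmb7 cut the protein. A 19S cap binds ubiquitin, removes it and feeds the unfolded protein in. Its base holds the ATPases (Psmc genes) with Psmd1, Psmd2 and Psmd4, and its lid holds the other Psmd subunits. Psmd5, Psmd9 and Psmd10 are not subunits but chaperones that assemble the base. Under interferon, Psmb8, Psmb9 and Psmb10 take the places of Psmb5, Psmb6 and Psmb7 and form the immunoproteasome, whose peptides serve antigen presentation, and the PA28 activator of Psme1 and Psme2 is induced with them. In mammalian cells short of proteasome activity, the factor Nfe2l1 raises the constitutive genes together through antioxidant response elements.

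The promoters of catalytic genes, immunoproteasome and constitutive, are shown as a description and entered none of the comparisons of expression below. Each holds 250 bases before and 50 after the annotated start (RefSeq sequence, build GRCr8, 5′ to 3′ along the gene). Psmb10 lies on the minus strand of chr19:50743243-50743542, Psmb8 on the minus strand of chr20:4656982-4657281, Psmb9 on the plus strand of chr20:4668750-4669049, Psmb7 on the minus strand of chr3:42827421-42827720 and Psmb5 on the minus strand of chr15:32047330-32047629. Capitals mark matches to the interferon-stimulated response element (GAAA, any 2 bases and GAAA), TTCNNNGAA (the gamma-activated sequence) or TGACNNNGC (the antioxidant response element core), searched on both strands.
Psmb10: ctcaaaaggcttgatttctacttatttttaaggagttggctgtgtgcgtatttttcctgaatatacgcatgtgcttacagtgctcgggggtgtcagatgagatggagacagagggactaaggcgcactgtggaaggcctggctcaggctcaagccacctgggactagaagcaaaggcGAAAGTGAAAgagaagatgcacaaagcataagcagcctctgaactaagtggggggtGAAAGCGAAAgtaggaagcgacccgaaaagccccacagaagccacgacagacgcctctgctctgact
Psmb8: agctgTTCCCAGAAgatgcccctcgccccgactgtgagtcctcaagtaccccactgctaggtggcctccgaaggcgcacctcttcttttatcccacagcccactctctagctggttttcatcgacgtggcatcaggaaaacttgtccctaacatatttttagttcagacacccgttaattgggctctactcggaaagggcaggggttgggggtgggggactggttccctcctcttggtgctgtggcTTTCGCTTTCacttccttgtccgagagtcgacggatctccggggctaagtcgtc
Psmb9: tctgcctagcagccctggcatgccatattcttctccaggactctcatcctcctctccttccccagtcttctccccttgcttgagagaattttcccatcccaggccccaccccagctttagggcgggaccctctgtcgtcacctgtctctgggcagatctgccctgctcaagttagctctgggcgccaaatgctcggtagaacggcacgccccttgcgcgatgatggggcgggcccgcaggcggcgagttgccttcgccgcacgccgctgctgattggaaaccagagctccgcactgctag
Psmb7: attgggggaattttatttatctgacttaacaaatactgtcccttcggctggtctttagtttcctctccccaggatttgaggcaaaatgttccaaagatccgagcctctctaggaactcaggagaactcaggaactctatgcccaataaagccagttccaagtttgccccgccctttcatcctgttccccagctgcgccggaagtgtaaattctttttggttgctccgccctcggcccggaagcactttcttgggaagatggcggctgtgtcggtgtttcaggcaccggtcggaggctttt
Psmb5: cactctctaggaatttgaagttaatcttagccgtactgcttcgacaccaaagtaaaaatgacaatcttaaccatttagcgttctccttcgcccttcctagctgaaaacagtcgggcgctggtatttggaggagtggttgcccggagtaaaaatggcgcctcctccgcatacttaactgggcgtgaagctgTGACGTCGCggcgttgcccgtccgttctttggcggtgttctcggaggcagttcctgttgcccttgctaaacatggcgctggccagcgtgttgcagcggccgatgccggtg

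Psmb10 held the letters of the interferon-stimulated response element at 2 places, from -73 to -64 and from -17 to -8 relative to the start. Psmb8 held it once on the other strand, from -4 to 6, and a gamma-activated sequence from -245 to -237. Psmb5 held an antioxidant response element core from -60 to -52, and none of these 3 motifs was found in the windows of Psmb9 and Psmb7. Of the 44 members, 40 had a promoter in the table. The interferon-stimulated response element was present in 6 of these 40 (15%) and in 3.92% of all 33469 promoters. These 6 were Psmb10, Psmb8, the constitutive Psma4, Psmb3 and Psmd7, and the chaperone Psmg4. Among the constitutive subunits alone it was present in 3 of 26 (11.5%). The antioxidant response element core was present in 7 of 40 (17.5%), against 12.1% of all promoters, and the gamma-activated sequence, which is its own reverse complement, in 4 of 40 (10%), against 8.87%. CCAAT, a common element near start sites, was present in 21 of 40 (52.5%), against 37.5%. A match is a description of these letters and shows no binding.

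Measures of the arrays bear on what follows. The 6 arrays with the lowest spread of values lay in the vehicle 24 h group (3 arrays) and the ANIT 120 h group (3 arrays), with SDs of 1.84 to 1.90, where the other 18 arrays began at 1.93. The 9 spiked control probe sets averaged 10.56 to 11.19 in ANIT rats at 24 h and 10.57 to 11.69 in vehicle rats, and 10.55 to 11.41 in ANIT rats at 120 h and 10.48 to 11.09 in vehicle rats. The difference between the 3′ and 5′ probe sets of beta-actin, which moves with RNA integrity and amplification, was 2.98 to 3.18 in ANIT rats at 24 h and 2.77 to 2.91 in vehicle rats, with no overlap. At 120 h it was 2.48 to 2.93 in ANIT rats and 2.76 to 2.98 in vehicle rats. The summed level of the hepatocyte markers, among them albumin, was 15.57 to 15.73 on the log2 scale in ANIT rats at 24 h and 15.67 to 15.74 in vehicle rats. At 120 h it was 15.61 to 15.66 in ANIT rats and 15.63 to 15.71 in vehicle rats. Such a sum of unlogged values follows its brightest probe sets and is no measure of the share of hepatocytes.

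At 24 h, proteasome genes were higher in ANIT livers almost throughout the constitutive particle. The background was 12.9% of all genes called higher and 5.31% called lower, and among the members 30 of 44 rose and 0 fell. Of the 30 constitutive subunits, 27 rose. For 22 of the 30, among them Psmd7, which was not called, every ANIT rat lay above every vehicle rat, a pattern found in 5.55% of all genes. No member lay lower in every ANIT rat, as 2.32% of all genes did. The median change of the constitutive subunits was 0.53, against 0.005 over all genes. Among the brighter genes alone (mean level of at least 6.18), 26.1% of genes were called higher and the median over all of them was 0.15. The immunoproteasome gene Psmb10 changed most of all members.

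**Figure D1:**
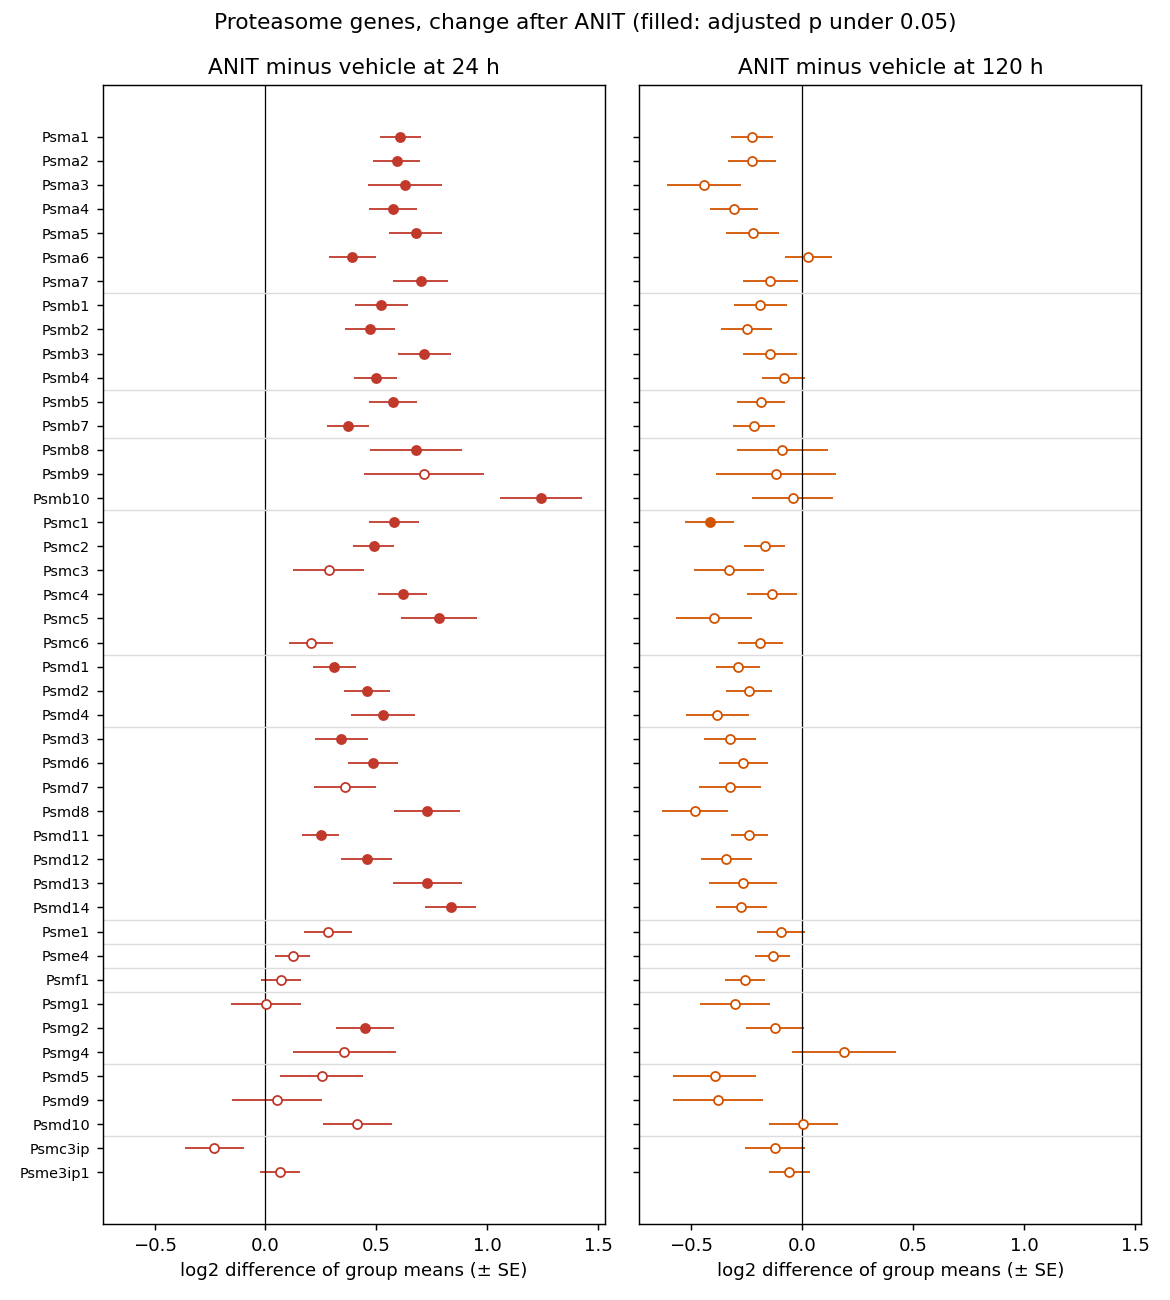
Change of each of the 44 members, as the log2 difference of group means (ANIT minus vehicle, horizontal axis) with its standard error, at 24 h on the left and at 120 h on the right; filled points have an adjusted p under 0.05. Of the 44 points, 30 are filled at 24 h, all right of 0, and at 120 h only Psmc1 is filled, left of 0.

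All 7 alpha ring genes rose at 24 h, with a median change of 0.61. Psma1 had 10.09, 10.33 and 10.35 in ANIT rats, against 9.55, 9.69 and 9.86 in vehicle rats. The groups did not overlap, and the change was 0.61 ± 0.09 (SE, n = 6 rats per group, limma adjusted p = 3.2e-05). Psma5 had 10.31, 10.65 and 10.83 in ANIT rats, against 9.81, 9.88 and 10.22 in vehicle rats, also without overlap (change 0.68 ± 0.12, limma adjusted p = 0.00020). Psma7 changed by 0.70, Psma3 by 0.63, Psma2 by 0.59, Psma4 by 0.58 and Psma6 by 0.39. For Psma3 the groups overlapped.

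The 4 structural beta genes rose too, with a median of 0.51. Psmb3 had 10.14, 10.44 and 10.57 in ANIT rats, against 9.51, 9.74 and 9.81 in vehicle rats. Its change was 0.72 ± 0.12 (limma adjusted p = 9.6e-05), and Psmb1, Psmb4 and Psmb2 changed by 0.52, 0.50 and 0.47.

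Of the constitutive catalytic genes, Psmb5 (the chymotrypsin-like site) had 10.42, 10.51 and 10.69 in ANIT rats at 24 h, against 9.79, 9.94 and 10.20 in vehicle rats. Psmb7 (the trypsin-like site) had 11.00, 11.17 and 11.26 in ANIT rats, against 10.62, 10.77 and 10.94 in vehicle rats. Neither pair of groups overlapped, and both genes rose, Psmb5 by 0.57 ± 0.11 (limma adjusted p = 0.00038) and Psmb7 by 0.37 ± 0.09 (adjusted p = 0.0065).

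Of the immunoproteasome genes, Psmb10 (the counterpart of Psmb7) had 7.69, 8.28 and 8.47 in ANIT rats at 24 h, against 6.87, 6.97 and 7.02 in vehicle rats. The lowest ANIT rat lay well above the highest vehicle rat, and the vehicle rats lay close together. The change was 1.24 ± 0.18, a 2.36-fold difference (95% interval 0.86 to 1.62 on the log2 scale, limma adjusted p = 2.2e-05), rank 114 among the rises of 13439 genes. Psmb8 (the counterpart of Psmb5) had 8.60, 8.75 and 9.54 in ANIT rats, against 7.84, 8.31 and 8.43 in vehicle rats. It rose by 0.68 ± 0.21 (limma adjusted p = 0.021), and the highest ANIT rat lay at 9.54, against a median of 8.75. Without that rat (ANIT 24 h replicate 1) the adjusted p was 0.072, and without vehicle 24 h replicate 5 it was 0.058. Psmb9 (the counterpart of Psmb6) had 6.84, 7.13 and 7.63 in ANIT rats, against 5.89, 6.51 and 6.83 in vehicle rats. Its groups just failed to overlap, yet its change of 0.71 ± 0.27 did not pass (limma adjusted p = 0.068).

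**Figure D2:**
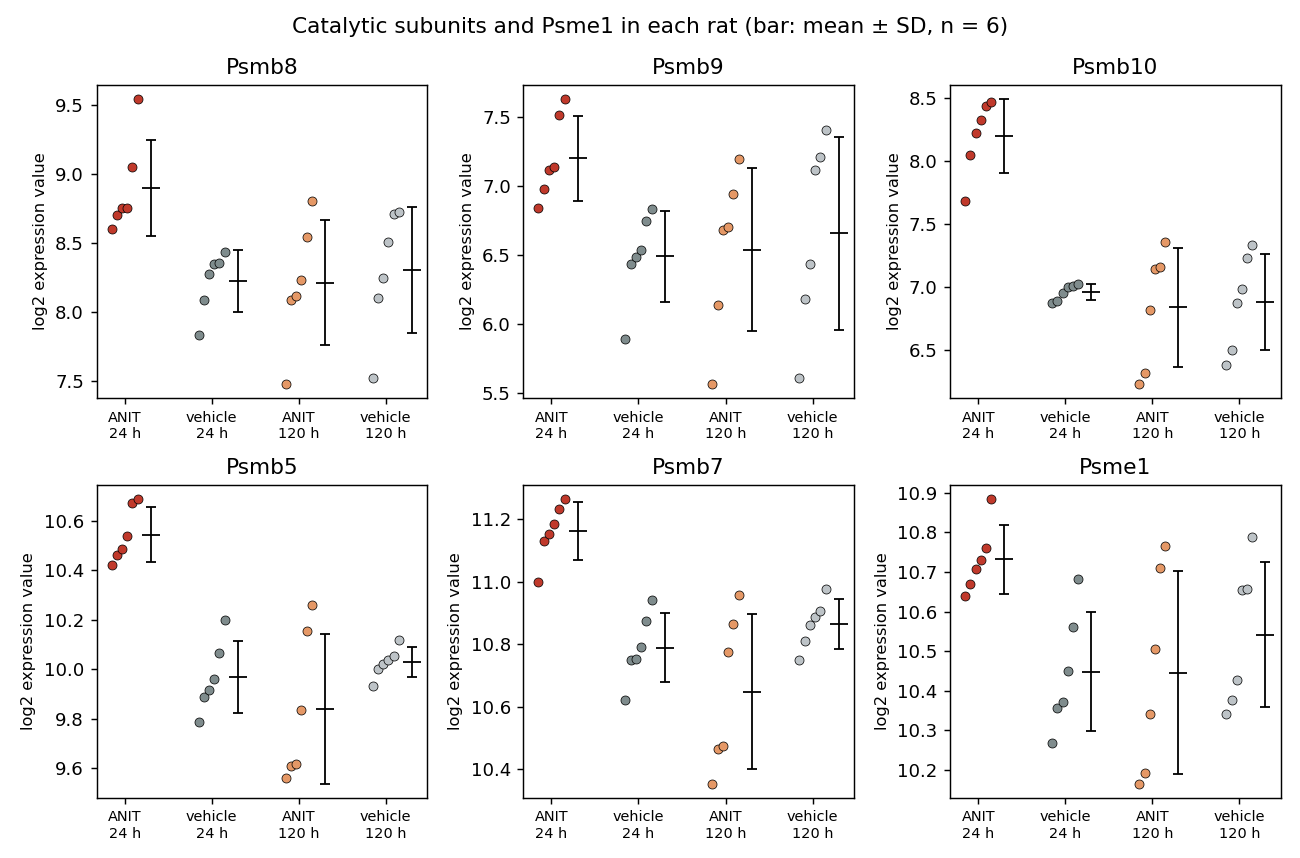
Log2 expression value (vertical axis, its own range for each gene) of Psmb8, Psmb9, Psmb10, Psmb5, Psmb7 and Psme1 in each rat, sorted within a group, for ANIT 24 h, vehicle 24 h, ANIT 120 h and vehicle 120 h; bars are the mean ± SD of 6 rats. The 6 ANIT rats at 24 h lie between 7.69 and 8.47 for Psmb10, above every rat of the other 3 groups, whose highest value is 7.36.

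The change of an immunoproteasome gene relative to its constitutive counterpart was read from the difference between them on the same array, of which only the shift between groups is compared, since the level of the difference depends on the probe sets. Psmb10 minus Psmb7 was -3.31, -2.95 and -2.66 in ANIT rats at 24 h (lowest, median and highest), against -3.92, -3.86 and -3.62 in vehicle rats. The groups did not overlap. The means were -2.96 ± 0.23 in ANIT rats and -3.83 ± 0.11 in vehicle rats (SD, n = 6 each), a shift of 0.87 towards Psmb10 (exact permutation test over rats, two-sided, p = 0.0022, the smallest that 924 splits can give, and 0.0087 after adjustment over 4 comparisons). Psmb8 minus Psmb5 was -1.64 ± 0.30 in ANIT rats and -1.75 ± 0.32 in vehicle rats (SD, n = 6 each), and the shift of 0.10 was smaller than the spread between rats (exact permutation p = 0.56, adjusted 0.71). At 120 h the shifts were 0.17 for Psmb10 minus Psmb7 (exact permutation p = 0.41, adjusted 0.71) and 0.10 for Psmb8 minus Psmb5 (exact permutation p = 0.71, adjusted 0.71). Psmb9 had no single-gene partner, since Psmb6 shares its probe set.

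**Figure D3:**
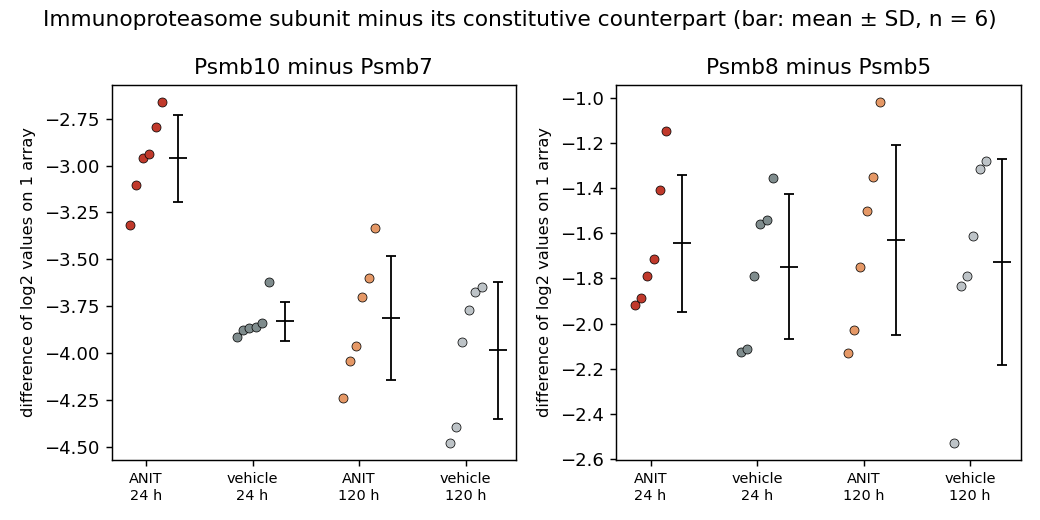
Difference of log2 values on the same array (vertical axis) for Psmb10 minus Psmb7 on the left and Psmb8 minus Psmb5 on the right, 1 point per rat, with the mean ± SD of 6 rats. On the left the ANIT rats at 24 h, with a mean of -2.96, lie above the vehicle rats, with a mean of -3.83; on the right all groups overlap.

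In the 19S cap, 14 of 17 subunits rose at 24 h, with a median change of 0.48. Of the 6 ATPases of the base, which unfold the substrate, Psmc5, Psmc4, Psmc1 and Psmc2 rose, while Psmc3 changed by 0.28 (limma adjusted p = 0.23) and Psmc6 by 0.21 (adjusted p = 0.17). Psmc5 had 8.41, 8.87 and 9.24 in ANIT rats, against 7.78, 8.10 and 8.48 in vehicle rats. The groups overlapped in their outermost rats, and the change was 0.78 ± 0.17 (limma adjusted p = 0.0018). The 3 other base subunits rose: Psmd4, a ubiquitin receptor, by 0.53, and the scaffold subunits Psmd2 and Psmd1 by 0.46 and 0.31.

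Of the 8 lid genes 7 rose, and Psmd7 changed by 0.36 (limma adjusted p = 0.078). Psmd14, the enzyme that removes the ubiquitin chain, had 9.17, 9.39 and 9.64 in ANIT rats, against 8.26, 8.57 and 8.80 in vehicle rats. The groups lay well apart, and its change of 0.83 ± 0.12 (limma adjusted p = 9.2e-06) was the largest among the constitutive subunits. Psmd13 had 8.70, 9.02 and 9.30 in ANIT rats, against 7.91, 8.28 and 8.63 in vehicle rats (change 0.73 ± 0.15, limma adjusted p = 0.0013). Psmd8 changed as much, by 0.73 ± 0.15, and the other lid genes by 0.25 (Psmd11) to 0.48 (Psmd6).

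Outside the particle itself few members passed the test at 24 h. Psme1, the alpha chain of the PA28 activator, had 10.64, 10.72 and 10.88 in ANIT rats, against 10.27, 10.41 and 10.68 in vehicle rats. The groups overlapped, and the change was 0.28 ± 0.11 (limma adjusted p = 0.070, and 0.044 without vehicle 24 h replicate 6). Psme1 also passed with dim genes left out (limma adjusted p = 0.042) and with the 24 h groups fitted alone (adjusted p = 0.046). Its dimmer probe set changed by -0.06 (limma adjusted p = 0.86 in a fit over all probe sets). Psme4, the activator PA200, changed by 0.12 (adjusted p = 0.29) and Psmf1, the inhibitor PI31, by 0.07 (adjusted p = 0.63). Of the 6 assembly chaperones only Psmg2 rose, by 0.45 ± 0.13 (limma adjusted p = 0.016). Its partner Psmg1 changed by 0.005, and Psmg4, Psmd5, Psmd9 and Psmd10, of which the last 3 assemble the base, by 0.05 to 0.41. Psmc3ip and Psme3ip1 changed by -0.23 and 0.07 (limma adjusted p = 0.24 and 0.65).

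Where a member had several probe sets, they did not always move alike. The 3 probe sets of Psmd14 changed by 0.83, 1.02 and 0.75 at 24 h, each with an adjusted p under 0.05 in a fit over all 31139 probe sets, and both of Psmc4 rose, by 0.62 and 0.74. For Psma7 the brighter probe set changed by 0.70 and the other by -0.23 (limma adjusted p = 0.039), in opposite directions. For Psmd11 the probe set used changed by 0.25, another by 0.78 and the dimmest by -0.16 (limma adjusted p = 0.63). For Psme4 the probe set used changed by 0.12 and the others by 0.39 and 0.37 (limma adjusted p = 0.025 and 0.0499), so the absence of a call for Psme4 rests on the choice of probe set.

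The array measures moved with the rise at 24 h. The mean of the 30 constitutive subunits was 9.62, 9.86 and 10.00 in ANIT rats, against 9.11, 9.32 and 9.50 in vehicle rats. The 3 vehicle arrays of low spread lay at 9.11 to 9.28 and the other 3 at 9.35 to 9.50, all of them below the lowest ANIT rat. Without the 6 arrays of low spread, 22 members were called higher, against 6.12% of all genes, and the constitutive median was 0.40. With the control level as a covariate, 25 members were called (9.64% of all genes called higher, 10.5% lower) and the median was 0.38. With the beta-actin ratio as a covariate, 5 members were called (Psma1, Psma5, Psmb10, Psmc4 and Psmd14), against 3.45% of all genes, while the median was 0.42. Since that ratio did not overlap between the groups at 24 h, it and ANIT cannot be told apart there.

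**Figure D4:**
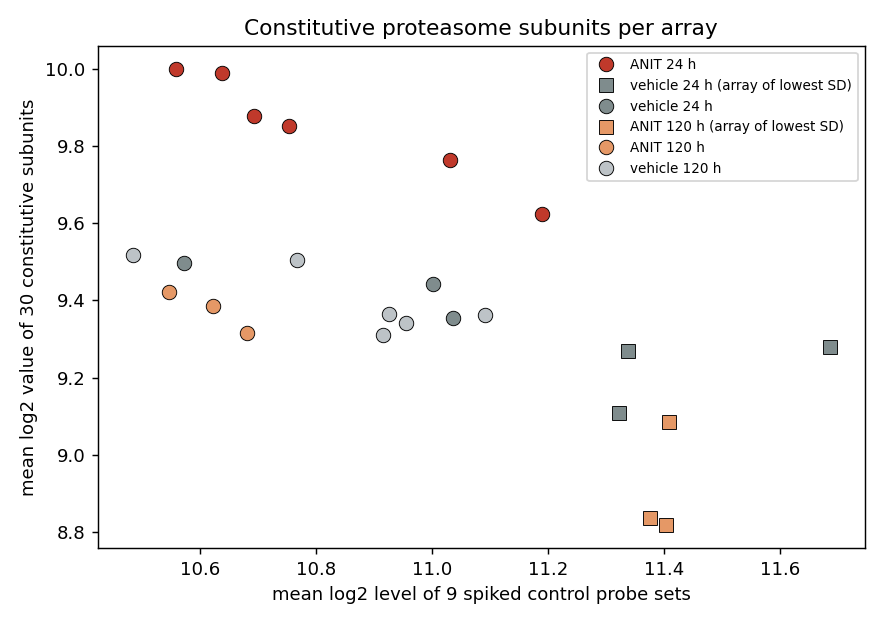
Mean log2 value of the 30 constitutive subunits (vertical axis) against the mean log2 level of the 9 spiked control probe sets (horizontal axis), 1 point per array, coloured by group; squares are the 6 arrays of lowest SD. The ANIT 24 h arrays lie at 9.62 to 10.00, above all others, and the squares lie at the lower right, at 8.82 to 9.28.

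Psmb10 kept its call in each of the 8 alternatives tried, with changes of 0.88 to 1.32 (limma adjusted p from 1.4e-05 to 0.038). Psmb8 was not called with the control level as a covariate (0.52, limma adjusted p = 0.074), with the beta-actin ratio (0.12, adjusted p = 0.90) and without the 6 arrays of low spread (0.66, adjusted p = 0.087). Psmb9 changed by -0.02 with the beta-actin ratio as a covariate, where its sign turned. It passed only with dim genes left out (limma adjusted p = 0.044), with the 24 h groups fitted alone (adjusted p = 0.0087), and when vehicle 24 h replicate 1, ANIT 120 h replicate 4 or vehicle 120 h replicate 1 was left out (lowest adjusted p = 0.041).

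At 120 h no proteasome gene was called higher, and 1 was called lower, against 2.02% of all genes called in either direction (0.513% higher and 1.51% lower). That gene was Psmc1, an ATPase of the base, with 8.26, 8.78 and 8.95 in ANIT rats, against 9.0, 9.07 and 9.34 in vehicle rats. The groups did not overlap, and it fell by 0.42 ± 0.11 (limma adjusted p = 0.048). The call was lost with the beta-actin ratio as a covariate, with arrays set to a common median, with the 120 h groups fitted alone and without the 6 arrays of low spread (adjusted p from 0.11 to 0.43), and no member was called lower when any of 18 of the 24 arrays was left out. Psmf1 also lay lower in every ANIT rat (8.60, 8.71 and 8.93) than in every vehicle rat (8.94, 8.99 and 9.11), but did not pass (change -0.26, limma adjusted p = 0.16). Groups without overlap were found lower in ANIT for 1.58% of all genes and higher for 0.558%.

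At 120 h the change was negative for 41 of 44 members, of which only Psmc1 passed the test, and for 6927 of all 13439 genes. The median of the constitutive subunits was -0.24, against -0.006 over all genes, and the lowest values were Psmd8 at -0.48, Psma3 at -0.44 and Psmc1. Among the brighter genes alone the median over all of them was -0.09, and 3.9% were called lower. The mean of the 30 constitutive subunits was 8.82, 9.20 and 9.42 in ANIT rats, against 9.31, 9.36 and 9.52 in vehicle rats. The 3 ANIT arrays of low spread lay at 8.82 to 9.08 and the other 3 at 9.32 to 9.42, within the range of the vehicle rats. Without the 6 arrays of low spread the median was -0.02 and 0 members were called by limma. The immunoproteasome genes had wide ranges at 120 h: Psmb9 had 5.57, 6.69 and 7.20 in ANIT rats, against 5.61, 6.77 and 7.40 in vehicle rats, and Psmb10 had 6.23, 6.98 and 7.36, against 6.38, 6.92 and 7.33. Neither differed beyond that spread (changes of -0.12 and -0.04, limma adjusted p = 0.88 and 0.94).

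The ANIT effect at 24 h exceeded that at 120 h for 29 of 44 members in limma's test of the difference, and was smaller for 0, against 11% and 3.33% of all genes. Of these, 27 were constitutive subunits, and the others were Psmb10 (1.29 ± 0.26, limma adjusted p = 0.0016) and Psmg2. Among the 30 constitutive subunits the differences ran from 0.37 (Psma6, adjusted p = 0.099) to 1.21 (Psmd8, adjusted p = 0.00033), with a median of 0.76. The median over all genes was 0.02, and 0.24 among the brighter genes alone. In a fit of those brighter genes, 24.8% were called larger at 24 h and 5.39% smaller, with 33 and 0 of 43 members. The differences for Psmb8 (0.77 ± 0.29), Psmb9 (0.83 ± 0.38) and Psme1 (0.38 ± 0.15) were not called (limma adjusted p = 0.076, 0.14 and 0.096). Without vehicle 120 h replicate 1 Psmb8 (adjusted p = 0.023) and Psmb9 (0.048) passed, as did Psmb8 without ANIT 120 h replicate 1 (0.033) and Psme1 without ANIT 120 h replicate 3 (0.041). Without the 6 arrays of low spread 9 members were called, against 2.51% of all genes, and the constitutive median was 0.43. With the beta-actin ratio as a covariate 3 were called (Psma1, Psmc1 and Psmd14), against 1.83% of all genes, and the constitutive median was 0.61. Both effects enter this difference, and the arrays of low spread lie in the vehicle group of the first and in the ANIT group of the second.

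Between the vehicle groups, 120 h against 24 h, limma called 0 of 44 members in either direction, and 0.00744% of all genes. The median of the constitutive subunits was 0.06, and for all 44 members the vehicle groups overlapped, while 0.469% of all genes lay higher without overlap at 120 h and 0.186% lower. Over the members, the median SD between rats was 0.17 in both groups at 24 h, 0.28 in ANIT rats at 120 h and 0.13 in vehicle rats at 120 h.

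**Figure D5:**
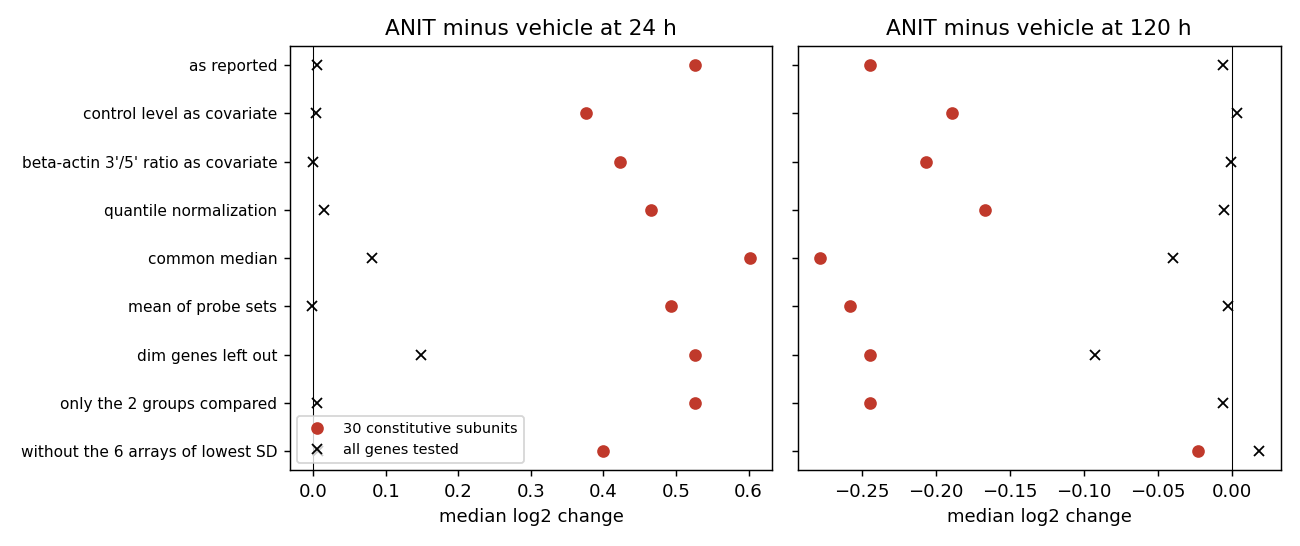
Median log2 change (horizontal axis) of the 30 constitutive subunits (circles) and of all genes tested (crosses) under each processing alternative, ANIT minus vehicle, at 24 h on the left and at 120 h on the right. At 24 h the circles lie between 0.38 and 0.60, and at 120 h the circle without the 6 arrays of lowest SD lies at -0.02.

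Genes that work with the proteasome were read from lists chosen with results of these data known. Beside the counts below, 12.9% of all genes were called higher at 24 h and 5.31% lower. Among the brighter genes these shares were 26.1% and 9.24%. At 120 h, 0.513% of all genes were called higher and 1.51% lower. Of 7 other proteasome factors measured, 4 rose at 24 h and 0 fell: the ubiquitin receptor Adrm1 (0.63), the deubiquitinase Usp14 (0.50), the assembly factor Pomp (0.37) and the adaptor Ecpas (0.30). At 120 h only Ube3c, a ligase on the proteasome, was called, and it fell by 0.33 (limma adjusted p = 0.037). Of 8 genes of the Nfe2l1 pathway, 4 rose at 24 h: Syvn1, the ubiquitin ligase of the endoplasmic reticulum, and Ufd1, Nploc4 and Vcp, which draw proteins out of its membrane. Syvn1 had 9.0, 9.24 and 9.43 in ANIT rats, against 8.03, 8.29 and 8.59 in vehicle rats (change 0.91 ± 0.10, limma adjusted p = 3.0e-07). Nfe2l1 itself overlapped between the groups, with 5.89, 6.05 and 6.45 in ANIT rats and 5.89, 6.31 and 6.55 in vehicle rats (change -0.15, limma adjusted p = 0.54). These values lie near the level of 6.18 that set off the brighter genes, so the absence of a call says little about Nfe2l1 RNA. At 120 h Nploc4 fell by 0.31 (limma adjusted p = 0.044).

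Of 8 ubiquitin genes and shuttle factors, 4 rose at 24 h and 0 fell: Zfand2a, a stress-induced partner of the proteasome, by 1.11 ± 0.17, the autophagy receptor Sqstm1 by 0.56, the ubiquitin-activating enzyme Uba1 by 0.42 and the shuttle Rad23b by 0.29. Of 8 genes of class I antigen presentation, 5 rose: Pdia3 (0.69), Tapbp (0.63), Calr (0.39), Erap1 (0.32) and Canx (0.30), of which Pdia3, Calr and Canx are general chaperones of the endoplasmic reticulum. The peptide transporter Tap1 changed by 0.39 and the light chain B2m by -0.09 (limma adjusted p = 0.066 and 0.36). Of 16 interferon-response genes, 4 rose and 1 fell, and their median change was 0.03. Those that rose were Ifit2 (0.96), Cxcl10 (0.89), Irf1 (0.65) and Stat2 (0.42), and Cxcl11 fell by 0.44. Irf1, a transcription factor that acts on the immunoproteasome genes, had 7.27, 7.62 and 7.98 in ANIT rats, against 6.65, 6.95 and 7.30 in vehicle rats (change 0.65 ± 0.18, limma adjusted p = 0.012). In none of the 3 lists was a gene called at 120 h. The counts at 24 h stand beside 12.9% of all genes called higher and 5.31% lower. Among the brighter genes the shares were 26.1% and 9.24%.

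Immune cells carry immunoproteasome genes at high levels, and in whole liver a change in the number of cells and a change in RNA per cell cannot be told apart. Of 14 lymphocyte and NK cell markers, 0 rose and 2 fell at 24 h (Cd8a by 0.56 and Cd79b by 0.32). Their summed level on the log2 scale was 8.31 to 8.58 in ANIT rats, against 8.58 to 8.84 in vehicle rats. Such a sum over 14 genes means that they were dim on average, below the level of 6.18 that set off the brighter genes. The lower values therefore say little about the number of these cells. Of 12 monocyte and macrophage markers 4 rose (Lgals3 by 1.13, Lyz2, Cd163 and C1qb), and their sum was 12.14 to 12.38 in ANIT rats and 12.01 to 12.16 in vehicle rats. Of 5 neutrophil markers 3 rose (S100a8 by 1.82, S100a9 and Il1r2), and their sum was 8.32 to 9.21 in ANIT rats, against 7.10 to 8.31 in vehicle rats. Hepatocyte markers rose in 2 of 8 cases (Fgb and Tat), endothelial markers in 1 of 5 (Lyve1) with 2 lower (Kdr and Stab2), and cholangiocyte markers in 0 of 6. Over all genes 12.9% were called higher and 5.31% lower at 24 h, and among the brighter genes 26.1% and 9.24%. At 120 h Krt19 and Cftr of the cholangiocyte markers and Cd163 of the macrophage markers were higher, as were 0.513% of all genes. The part of these cells in the change of Psmb8, Psmb9 and Psmb10 was not tested.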

How the data were processed

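Liver RNA of 24 rats was measured on 1 expression array per rat, in 4 groups of 6, and the labels name each rat, so replicates are separate animals. The authors deposited log2 expression values, 1 per probe set and array, made with RMA in Partek per the submitters' processing notes; no source used here gives a version, and no scanner files were used here. No batch is named in the labels. Of 31139 probe sets, 19069 named 1 gene in the platform annotation, 572 several and 11498 none. The brightest single-gene probe set, by its mean across the 24 arrays, stood for each gene, which gave 13439 genes, and 80 probe sets kept names that the RefSeq table does not hold. The 44 members had 59 such probe sets. The number of arrays limits the precision of each value.

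The log2 values were fitted with limma 3.58.1 in R 4.3.3 as 4 group means over all 24 arrays, with Benjamini-Hochberg adjustment over 13439 genes and a threshold of 0.05; the script was tested on simulated data. Differences between an immunoproteasome gene and its counterpart were tested by exact permutation over rats. The planned comparison of Psmb9 with Psmb6 was left out because Psmb6 shares its probe set, so 4 comparisons were made. The alternatives were the control level or the beta-actin ratio as a covariate, quantile normalization, a common median, the mean of a gene's probe sets, dim genes left out, only the 2 groups compared, the 6 arrays of lowest SD left out and each array left out in turn. All members could be named; of the other lists, the 3 genes of lowest p in each comparison, together with Nfe2l1, Pomp and Irf1, and further called genes were named after their values were seen. The members and lists were chosen with earlier results of these data known. Summed marker levels are the log2 of the sum of unlogged values.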

Additional observations from a re-analysis of the deposited data

Results flagged for a closer look

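In 6 of 176 sets of 6 rats (44 members in 4 groups), 1 rat stood apart from the other 5 by Dixon's criterion, which chance alone gives in about 5% of sets. Among the ANIT rats at 24 h, replicate 4 was the lowest for Psma1 (10.09, the nearest rat at 10.32) and for Psmb2 (8.30, nearest 8.63), and replicate 6 was the highest for Psma2 (11.51, nearest 11.23). Among the vehicle rats at 120 h, replicate 2 was the lowest for Psma1 (9.61, nearest 9.73), Psmc4 (8.87, nearest 9.09) and Psmd12 (8.92, nearest 9.09).

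The ANIT effect at 24 h exceeded that at 120 h, by limma's test of the difference, for 29 members. In the alpha ring the differences between the effects on the log2 scale were 1.07 for Psma3, 0.90 for Psma5, 0.88 for Psma4, 0.84 for Psma7, 0.83 for Psma1 and 0.82 for Psma2. Among the beta genes they were 1.29 for Psmb10, 0.86 for Psmb3, 0.76 for Psmb5, 0.72 for Psmb2, 0.71 for Psmb1, 0.59 for Psmb7 and 0.58 for Psmb4. In the base they were 1.18 for Psmc5, 0.996 for Psmc1, 0.91 for Psmd4, 0.76 for Psmc4, 0.70 for Psmd2, 0.66 for Psmc2 and 0.60 for Psmd1. In the lid they were 1.21 for Psmd8, 1.11 for Psmd14, 0.996 for Psmd13, 0.80 for Psmd12, 0.75 for Psmd6, 0.68 for Psmd7, 0.67 for Psmd3 and 0.49 for Psmd11, and the chaperone Psmg2 had 0.57. The dimmer probe set of Psma7 went the other way, with -0.34 (limma adjusted p = 0.036 in the fit over all probe sets). With the mean of its probe sets Psma7 had 0.25 and was not called (limma adjusted p = 0.11).

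A signal also appeared in probe sets that name several genes and entered no comparison above. At 24 h, in a limma fit over all 31139 probe sets, the probe set listed under Psma3 and Psma3l rose by 0.61 (adjusted p = 0.014) and that of Psmb6 and Psmb6l1 by 0.60 (adjusted p = 0.019). One of the 2 probe sets listed under Psme3, G6pc1 and Aoc3 rose by 0.54 (limma adjusted p = 0.024), while the other changed by 0.27 (adjusted p = 0.21). The probe set of Psme2 and LOC100362709 rose by 0.51 (limma adjusted p = 0.0052). Which of the named genes gave these signals cannot be told apart.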

How the results depend on the processing

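No paired analysis was possible because the labels name each rat once and give the groups no shared replicate numbers. At 24 h, 25, 5, 28, 30, 31, 34, 32 and 22 members were called higher with the control level, the beta-actin ratio, quantile normalization, a common median, the mean of probe sets, dim genes left out, only the 2 groups compared and the 6 arrays of lowest SD left out, against 30 as reported; the share of all genes called higher was 9.64%, 3.45%, 13%, 14%, 12.4%, 26.1%, 12% and 6.12% in the same order, against 12.9%. Leaving out each array in turn gave 25 to 33 members. The 30 calls shared 5 genes with every alternative and 22 with every one but the beta-actin ratio. With a common median the median of all genes was 0.08. At 120 h the count of lower members, 1 as reported, was 2 with the control level and with quantile normalization, 0 with the beta-actin ratio, a common median, only the 2 groups and without the 6 arrays, and 0 to 2 with 1 array left out. For the difference between times, 3 members were called with the beta-actin ratio and 9 without the 6 arrays, against 29, and 28 to 33 with 1 array left out. The constitutive median of this difference, 0.76 as reported, was 0.55 with the control level and 0.43 without the 6 arrays, and the median at 120 h was -0.023 without them.

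Uncalled changes that turned sign were as follows, and the cause was not tested. At 24 h, with the control level, Psmd5 had -0.068, Psmg4 -0.053, Psmg1 -0.25, Psmf1 -0.035 and Psmd9 -0.28. With the beta-actin ratio, Psmd9 had -0.043, Psmg4 -0.028, Psmg1 -0.19, Psmb9 -0.024, Psmc3 -0.047 and Psmd5 -0.041. With quantile normalization, Psmd9 had -0.023, Psmg1 -0.15, Psmf1 -0.048 and Psme3ip1 -0.089. With the mean of probe sets Psmd9 had -0.045, and without the 6 arrays Psmg1 had -0.13, Psmf1 -0.068 and Psmd9 -0.31. At 120 h, Psmb10 had 0.044 with the control level, 0.052 with the beta-actin ratio and 0.23 without the 6 arrays. Psmb9 had 0.012, 0.077 and 0.20 under the same alternatives. Psmb8 had 0.060 with the beta-actin ratio, 0.0098 with quantile normalization and 0.074 without the 6 arrays. Psme1 had 0.049 with the mean of probe sets and 0.12 without the 6 arrays, where Psmb7 had 0.00072 and Psmb5 0.056. In the difference between times, Psmb9 had -0.10 with the beta-actin ratio. With 1 array left out, the change at 120 h was -0.25 to 0.056 for Psmb8, -0.33 to 0.075 for Psmb9 and -0.15 to 0.078 for Psmb10, and the shift of Psmb8 minus Psmb5 was -0.063 to 0.20. No called change reversed in any alternative run. Under the 3 alternatives run for it, the shift of Psmb10 minus Psmb7 at 24 h was 0.75 to 0.92.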
